A study of Mus musculus with 2 samples.

Results

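Myelin is the stack of membrane that oligodendrocytes wrap around axons, and its proteins are made from a small set of genes. The 9 genes described here, of 31054 in the matrices, were chosen by symbol: Mbp, Mobp, Cnp, Mal, Cldn11, Mog, Mag, Opalin and Ermn. All 9 had UMIs (unique transcript molecules counted per cell) in both libraries. The cells came from the preoptic area of the mouse brain, dissociated by Act-seq and captured on the 10x Genomics platform. In the SD+RS library the mice had 6 h of sleep deprivation and then 2 h of recovery sleep, and in the SD library they had the 6 h of sleep deprivation alone. All mice were wild-type C57BL/6J aged 9 to 10 weeks, males and females were pooled within each library, and how many mice made up a pool is not stated by the labels. The matrices also count YFP, which was among the leading genes of a neuron cluster led by Iapp, Calcr and Brs3. The source of these YFP counts was not examined. Each group has 1 library, so the groups could not be tested against each other, and the spread between animals is unknown. Intervals below are 95% intervals and cover counting error only.

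In the central nervous system oligodendrocyte precursors become newly formed oligodendrocytes, which then mature and turn on the myelin genes together. Mbp and Mobp encode basic proteins of compact myelin, where Mbp holds the inner faces of the membrane together. Cnp encodes an enzyme of the myelin channels that stay filled with cytoplasm, Mal a proteolipid of membrane transport, and Cldn11 the claudin of the tight junctions between myelin layers. Mog lies on the outermost myelin surface, and Mag lies at the inner surface against the axon. Opalin is a membrane glycoprotein of oligodendrocytes, and Ermn encodes ermin, which binds actin in the cytoskeleton of mature oligodendrocytes.

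Of the 9 genes, all but Mbp matched a promoter in the RefSeq table of build GRCm38.p6, each given as 250 bases before the start of the gene and 50 after it. The promoters of 4 genes are shown because the results below turn on them: Opalin differed most between the libraries, Ermn was high in 1 cluster of neurons, and Cnp and Mal were high outside the oligodendrocyte lineage. They lie at chr19:41077064-41077363 on the minus strand (Opalin), chr2:58052815-58053114 on the minus strand (Ermn), chr11:100574689-100574988 on the plus strand (Cnp) and chr2:127656646-127656945 on the minus strand (Mal), and are written 5′ to 3′ on the strand of the gene. Capitals mark matches on either strand to ACAAAG or ACAATG, letters bound by SOX factors, or to CAGCTG, letters of an E-box.
Opalin: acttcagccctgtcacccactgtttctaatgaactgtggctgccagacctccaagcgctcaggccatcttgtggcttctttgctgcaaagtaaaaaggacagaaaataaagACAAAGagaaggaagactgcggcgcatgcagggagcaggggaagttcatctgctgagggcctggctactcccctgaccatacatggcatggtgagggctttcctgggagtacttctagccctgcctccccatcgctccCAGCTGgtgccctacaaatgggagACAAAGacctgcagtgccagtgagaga
Ermn: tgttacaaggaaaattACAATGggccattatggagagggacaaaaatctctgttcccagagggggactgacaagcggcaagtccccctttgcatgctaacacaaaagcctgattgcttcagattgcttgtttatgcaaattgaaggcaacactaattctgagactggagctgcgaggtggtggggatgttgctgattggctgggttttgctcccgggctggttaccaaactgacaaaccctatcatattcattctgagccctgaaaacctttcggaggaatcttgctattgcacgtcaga
Cnp: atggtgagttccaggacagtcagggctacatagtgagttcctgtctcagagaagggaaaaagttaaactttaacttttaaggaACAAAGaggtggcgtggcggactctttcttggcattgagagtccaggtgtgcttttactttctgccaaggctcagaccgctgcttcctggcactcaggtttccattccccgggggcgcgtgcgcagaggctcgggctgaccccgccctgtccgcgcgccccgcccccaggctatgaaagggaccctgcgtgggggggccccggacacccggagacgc
Mal: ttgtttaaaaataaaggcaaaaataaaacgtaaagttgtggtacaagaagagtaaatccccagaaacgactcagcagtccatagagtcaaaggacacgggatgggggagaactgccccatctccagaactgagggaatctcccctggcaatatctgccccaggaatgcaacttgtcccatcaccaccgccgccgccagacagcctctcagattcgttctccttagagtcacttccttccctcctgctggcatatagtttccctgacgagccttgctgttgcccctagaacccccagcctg
The Opalin promoter held 2 matches to ACAAAG and 1 to CAGCTG, the Cnp promoter 1 to ACAAAG, the Ermn promoter 1 to ACAATG, and the Mal promoter had no match. Mobp, not shown, held 6 matches to ACAAAG. With every listed start of a gene counted, ACAAAG was present in 4 of the 8 genes with a promoter and in 18.7% of 32817 promoters in the table, ACAATG in 1 of 8 and 12.6%, and CAGCTG in 1 of 8 and 16.3%. A match is a description of the letters and not a binding site. In the gene annotation Dnajc7 overlaps Cnp, Galnt5 Ermn, Gm22388 Mog and Rpl21-ps8 Mbp on the opposite strand, and Gm38642 overlaps Mobp on the same strand, so reads there may be shared where the counting did not separate them.

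Mature oligodendrocytes were the cells of the oligodendrocyte and precursor clusters with at least 10 UMIs of Mog, Mag, Ermn and Mobp together. Newly formed cells were the remaining cells of these clusters with at least 3 UMIs of Bmp4, Gpr17, Enpp6, Neu4 and Casr together and more of these than of Pdgfra and Cspg4. Precursors were the other cells of the precursor cluster. There were 855 mature, 35 newly formed and 147 precursor cells in the SD+RS library, and 1401, 73 and 209 in the SD library. Only 7 SD+RS and 20 SD newly formed cells lay in an oligodendrocyte cluster, and the others lay in the precursor cluster. Mature cells were 11.5% (10.8 to 12.3) of SD+RS cells and 15.1% (14.4 to 15.8) of SD cells, with median depths of 7053 and 6958 UMIs per cell. Few cells lay near the minimum: 3 SD+RS and 2 SD cells had 5 to 9 UMIs of the 4 genes, 5 and 4 cells had 10 to 14, and the medians of mature cells were 79 and 69. The label was checked on 11 other oligodendrocyte markers, such as Ugt8a, which summed to 52935 UMIs per 1000000 (CPM) in SD+RS and 47928 CPM in SD mature cells. The Schwann cell markers Prx and Pmp2 were at 0 in the mature cells of both libraries. The Schwann cell list was near 0 as a whole, at 1.16 CPM in SD+RS and 1.37 CPM in SD. The libraries shared 23 cell barcodes, 18 of them among kept cells and 0 among mature cells. Clusters without a name held 214 of 7415 SD+RS cells and 811 of 9289 SD cells and are not described further, with 1 exception below. Over all kept cells the 9 genes summed to 2825 CPM in SD+RS and 3829 CPM in SD. Because the rule uses Mog, Mag, Ermn and Mobp, their low levels in precursors and newly formed cells follow in part from the rule and are descriptions only.

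In mature cells the 9 genes together held 36301 CPM in the SD+RS library and 33391 CPM in the SD library, a log2 ratio of SD+RS over SD of 0.12 (0.11 to 0.13). The genes did not move as a block. Opalin was higher in the SD+RS library by 1.90-fold, Mag, Mog and Cnp were higher by less than 1.5-fold, Mal and Cldn11 were close, and Mbp, Mobp and Ermn were lower by less than 1.5-fold. Opalin was the only one of the 9 past 1.5-fold. Among 8618 genes with at least 50 UMIs in each library, 3.25% were past 1.5-fold higher, 3.33% past 1.5-fold lower and 6.58% past it in either direction. The median log2 ratio was 0.10 over the 9 genes and −0.01 over all 8618.

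Among the proteins of compact myelin, Mbp stood at 6951.5 CPM in SD+RS and 7440.4 CPM in SD mature cells, a log2 ratio of −0.10 (−0.11 to −0.08). Mobp stood at 3099 CPM in SD+RS and 3444 CPM in SD mature cells (log2 ratio −0.15, −0.17 to −0.13). Both were slightly lower in the SD+RS library. The enzyme gene Cnp had 6633 CPM in SD+RS and 5373 CPM in SD mature cells, a log2 ratio of 0.30 (0.29 to 0.32). Mal, the transport proteolipid, had 7312 CPM in SD+RS and 6842 CPM in SD mature cells (log2 ratio 0.10, 0.08 to 0.11). Cldn11, the junction claudin, had 3437 CPM in SD+RS and 3200 CPM in SD mature cells, a log2 ratio of 0.10 (0.08 to 0.12). Cnp thus differed more than Mal and Cldn11, whose intervals overlapped.

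Both surface proteins of the immunoglobulin family were higher in the SD+RS library. Mag had 4587 CPM in SD+RS and 3460 CPM in SD mature cells, a log2 ratio of 0.41 (0.39 to 0.43). Mog had 1988 CPM in SD+RS and 1589.5 CPM in SD mature cells (log2 ratio 0.32, 0.29 to 0.35). Of all genes tested, 92.7% had a lower ratio than Mag and 89.2% a lower ratio than Mog. Ermn, the cytoskeletal gene, had 1378 CPM in SD+RS and 1562 CPM in SD mature cells, a log2 ratio of −0.18 (−0.21 to −0.15). These sizes lie inside the middle 95% of all genes, which ran from −0.66 to 0.63.

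Opalin lay outside that range. It had 7906 UMIs and 916 CPM (896 to 936) in SD+RS mature cells, against 6300 UMIs and 481 CPM (469 to 493) in SD mature cells, and its log2 ratio of 0.93 (0.88 to 0.98) exceeded that of 99.2% of the genes tested. The difference ran through the distribution over cells: the median cell had 7.94 Opalin UMIs per 10000 in the SD+RS library and 3.99 in the SD library. The lower quartiles were 4.16 in SD+RS and 1.64 in SD, and the upper quartiles 12.6 in SD+RS and 6.91 in SD. Cells without any Opalin UMI were 7.49% of SD+RS and 16.0% of SD mature cells. With each cell thinned to 2000 UMIs, 73.6% (70.5 to 76.6) of SD+RS and 53.1% (50.5 to 55.8) of SD mature cells had an Opalin UMI, against 92.5% and 84.0% before thinning. Only 9 SD+RS and 6 SD cells were too shallow for this. In neurons, thinned likewise, the shares were 0.0939% and 0.0806%, with median depths of 21221 and 22026 UMIs. The authors' deposited table for the SD+RS library lists Opalin in 91.7% of the cells of its cluster 27 and in 1.2% of other cells, and the authors' deposited table for the SD library lists it in 77.6% of the cells of its cluster 24 and in 1.1% of other cells. Both tables list all 9 genes for these clusters, but the clusterings were made separately, so the shares are set side by side only. In the other cells of these tables Cnp was found in 35.4% (SD+RS) and 34.3% (SD). Here Cnp was found in 34.6% of SD+RS and 35.3% of SD neurons, but in 49.2% and 53.25% of all kept cells. The deposited tables may thus cover mostly neurons, which was not tested. Their clusters 27 and 24 need not match the mature cells described here.

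**Figure D1:**
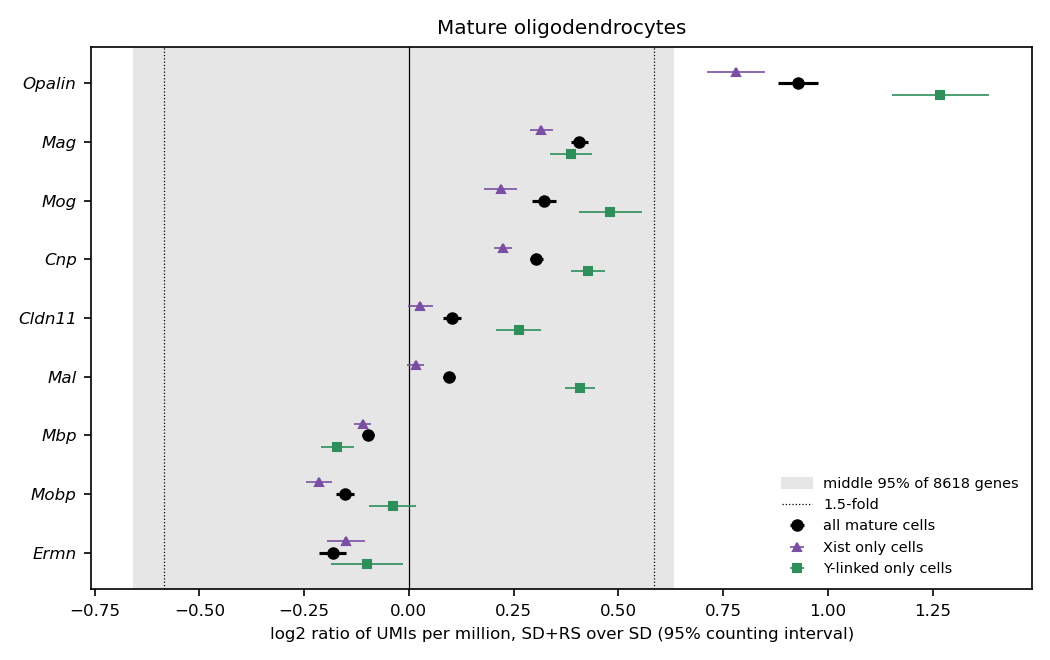
Log2 ratio of CPM, SD+RS over SD, of the 9 genes in mature oligodendrocytes, with 95% counting intervals. Circles are all mature cells, triangles cells with Xist UMIs only and squares cells with Y-linked UMIs only. The grey band is the middle 95% of 8618 genes and the dotted lines mark 1.5-fold. Opalin lies to the right of the band at 0.93, and the other genes lie within it.

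The pools differed in sex makeup, so the ratios were taken again within sex. Among cells that could be called, cells with Xist UMIs only were 80.8% of SD+RS and 62.1% of SD mature cells. Opalin was higher in the SD+RS library both in Xist-only cells, at 872 CPM in SD+RS and 508 CPM in SD (log2 ratio 0.78, 0.71 to 0.85), and in cells whose sex-linked UMIs were all Y-linked, at 1066 CPM in SD+RS and 443 CPM in SD (log2 ratio 1.27, 1.15 to 1.39). Mal was close between the libraries in Xist-only cells, at 7031 CPM in SD+RS and 6956 CPM in SD (log2 ratio 0.02, −0.01 to 0.04), but had 8396 CPM in SD+RS and 6326 CPM in SD among Y-linked cells (log2 ratio 0.41, 0.37 to 0.45). Cldn11 had a log2 ratio of 0.03 (−0.003 to 0.06) in Xist-only and 0.26 (0.21 to 0.32) in Y-linked cells. Mbp was lower in SD+RS in both, at −0.11 and −0.17, and Mag was higher in both, at 0.32 and 0.39. There were 537 Xist-only SD+RS and 602 SD cells, and 128 Y-linked SD+RS and 367 SD cells. The difference in Mal and Cldn11 between the sexes was not tested.

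Transcripts of neurons, astrocytes, vascular cells and microglia summed to less in the SD+RS mature cells. The 9 neuron markers summed to 121 CPM (114 to 129) in SD+RS and 240.3 CPM (232 to 249) in SD, with 0 of 9 higher in SD+RS and none at 0. The 9 astrocyte markers summed to 160 CPM in SD+RS and 236 CPM in SD, with 0 of 9 higher. The 8 endothelial markers summed to 5.68 CPM in SD+RS and 25.7 CPM in SD, with 0 of 8 higher, and the 9 mural markers to 2.90 CPM in SD+RS and 16.8 CPM in SD, with 1 higher and Higd1b at 0 in SD+RS. The 8 microglial markers summed to 30.7 CPM in SD+RS and 37.5 CPM in SD, with 1 of 8 higher and Tmem119 and Csf1r at 0 in SD+RS. The precursor markers Pdgfra and Cspg4 went the other way, both higher in SD+RS, with a sum of 2.32 CPM (1.42 to 3.58) in SD+RS and 1.30 CPM (0.76 to 2.08) in SD. Mitochondrial transcripts were 66767 CPM in SD+RS and 73250 CPM in SD. In the 428 SD+RS and 701 SD mature cells with the fewest neuron marker UMIs relative to their library, the log2 ratio of Opalin was 1.02 (0.96 to 1.09) and the median of the 9 genes 0.13. The part of the other markers in the smaller ratios was not tested.

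**Figure D2:**
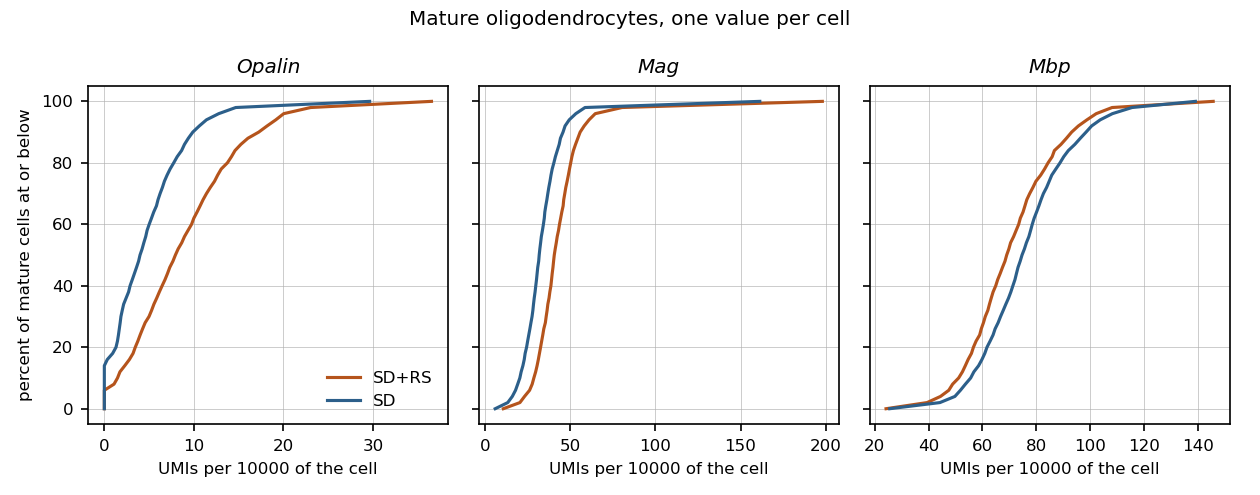
Cumulative share of mature oligodendrocytes (y axis, percent) by UMIs of the gene per 10000 UMIs of the cell (x axis) for Opalin, Mag and Mbp, in 855 SD+RS and 1401 SD cells. The Opalin curve of the SD+RS library is displaced to the right, with a median of 7.94 against 3.99, the Mag curve less so, and the Mbp curve lies slightly to the left.

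Mature cells fell into clusters that differed in Opalin and Mal. The clusters were built without the 9 genes. A cluster led by Ptgds, Il33 and Opalin held 550 SD+RS and 914 SD mature cells, and a cluster led by Klk6, Anln and Apod held 278 and 457. Opalin had 1041 CPM in SD+RS and 564 CPM in SD cells of the Il33 cluster, and 557 CPM in SD+RS and 280.2 CPM in SD cells of the Klk6 cluster. Within both clusters it was higher in the SD+RS library, with log2 ratios of 0.89 in the Il33 cluster and 0.99 in the Klk6 cluster. Mal had 8044 CPM in SD+RS and 7537 CPM in SD cells of the Il33 cluster, and 6098 CPM in SD+RS and 5665 CPM in SD cells of the Klk6 cluster. The clusters held like shares of the mature cells, 64.3% in SD+RS and 65.2% in SD for the Il33 cluster and 32.5% in SD+RS and 32.6% in SD for the Klk6 cluster.

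A split by marker genes alone gave a sharper contrast. Cells with at least 2 UMIs of Klk6 and Serpinb1a and none of Il33 (50 SD+RS and 89 SD cells) were set beside cells with at least 2 UMIs of Il33 and none of Klk6 and Serpinb1a (244 and 464). Opalin in the Klk6 cells was 187 CPM in SD+RS and 37.9 CPM in SD, and in the Il33 cells it was 1118 CPM in SD+RS and 588 CPM in SD. Opalin was thus 5.97-fold (4.72 to 7.66) higher in Il33 cells than in Klk6 cells in the SD+RS library and 15.5-fold (10.8 to 23.1) in the SD library. Mal was 2.13-fold (2.02 to 2.25) higher in Il33 cells than in Klk6 cells in the SD+RS library and 2.00-fold (1.92 to 2.07) in the SD library. Mbp, Mag, Mobp, Ermn and Mog went the other way in both libraries. Their log2 ratios of Klk6 over Il33 cells lay between 0.14 for Mog and 0.50 for Mag in the SD+RS library and between 0.27 for Mag and 0.40 for Ermn in the SD library. Cnp (0.10 in SD+RS and 0.03 in SD) and Cldn11 (0.03 and −0.13) were near even. Median depths were 7879 UMIs in SD+RS and 8526 UMIs in SD Klk6 cells, and 5746 UMIs in SD+RS and 6024 UMIs in SD Il33 cells.

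Across single mature cells the genes varied to different degrees. The interquartile range divided by the median was small for Cnp, at 0.28 in SD+RS and 0.29 in SD, and for Mbp, at 0.32 in SD+RS and 0.28 in SD, and largest for Opalin, at 1.06 in SD+RS and 1.32 in SD. Opalin also had the fewest UMIs per cell of the 9. Correlations of levels per cell were weak, with a median over 36 gene pairs of 0.14 in each library (n = 855 SD+RS and 1401 SD cells, which share their library and depth). They ran from −0.22 in SD+RS and −0.18 in SD, for Opalin with Mbp, to 0.44 in SD+RS and 0.37 in SD, for Opalin with Mal.

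Before maturity Cnp was the most abundant member. The newly formed cells, most of them from the precursor cluster, held 906 CPM of Pdgfra and Cspg4 in SD+RS and 990 CPM in SD. Precursors held 2339.5 CPM of these in SD+RS and 2305 CPM in SD. In newly formed cells Cnp had 1618 CPM (1429 to 1824) in the SD+RS library and 1633 CPM (1504 to 1771) in the SD library, 24.4% and 30.4% of its level in mature cells. Mbp had 608 CPM in SD+RS and 812 CPM in SD, 8.75% and 10.9% of its mature level, and Cldn11 had 158 CPM in SD+RS and 200.3 CPM in SD, 4.6% and 6.26%. Few cells carried these values: Mbp UMIs lay in 8 of 35 SD+RS cells (22.9%) and 27 of 73 SD cells (37.0%), and Cldn11 UMIs in 6 and 12 cells. Cnp UMIs lay in 27 SD+RS and 49 SD cells (77.1% and 67.1%). The intervals of the Mbp shares ran from 10.4% to 40.1% in SD+RS and from 26.0% to 49.1% in SD. In mural cells a Mbp UMI was found in 3.28% of SD+RS and 11.8% of SD cells, at median depths of 3455 and 3113 UMIs, against 4366 and 4620 UMIs in newly formed cells. In microglia the shares were 16.5% in SD+RS and 22.8% in SD, at median depths of 5397 and 5175.5 UMIs. In precursors they were 16.3% and 19.1%, at 4186 and 4469 UMIs. In newly formed cells the other 6 genes stood at no more than 1.53% of their mature levels in SD+RS and 1.40% in SD. Mog, Mag, Ermn and Mobp are held under 10 UMIs per cell here by the rule. Opalin had 1 UMI in the 35 SD+RS cells and 0 in the 73 SD cells, where its interval reached up to 10.3 CPM. With at least 50 UMIs in each library, only Cnp and Mbp could be counted, and neither was past 1.5-fold, where 2.82% of 532 genes were higher and 1.13% lower. The sum of the 9 genes was 2475 CPM in SD+RS and 2757 CPM in SD newly formed cells (log2 ratio −0.16, −0.33 to 0.01). Its sign turned with the definition of the cells: in the cluster led by Gpr17, Enpp6 and Bmp4 as a whole, 34 SD+RS and 51 SD cells, the log2 ratio was 0.39.

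That cluster was itself mixed. It held 27 SD+RS and 30 SD cells that met the rule for mature cells, and 7 and 20 newly formed cells. Mag stood at 9751 CPM in SD+RS and 5966 CPM in SD there, above its levels in the Il33 and Klk6 clusters of the same library. Cnp stood at 10482 CPM in SD+RS and 8214 CPM in SD, also above those clusters. Opalin stood at 1664 CPM in SD+RS and 896 CPM in SD, again above those clusters. Ermn was lower than in those clusters, at 711 CPM in SD+RS and 701 CPM in SD. The cluster had a median of 19275 UMIs per cell in SD+RS and 13016 in SD, against 6250.5 and 6312 in the Il33 cluster, and a median doublet score of 0.0202 in SD+RS and 0.0519 in SD, against 0.0186 and 0.0199 in the Il33 cluster. The scores of single cells reached 0.202 in SD+RS and 0.174 in SD, under the limits for a call of 0.252 and 0.179. Doublets that were not called cannot be told apart from differentiating cells here, and the part of depth in these levels was not tested.

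In precursors Cnp was again the main member, at 317 CPM (274 to 365) in the SD+RS library and 188.5 CPM (162 to 218) in the SD library. These were 4.78% and 3.51% of its mature level. Its log2 ratio of 0.75 (0.45 to 1.05) made it the 1 member past 1.5-fold, and it was the only member with at least 50 UMIs in each library. Among 2773 genes tested in precursors, 2.67% were past 1.5-fold higher. Mbp had 28 UMIs (45.5 CPM) in SD+RS and 48 UMIs (49.98 CPM) in SD precursors, 0.65% and 0.67% of the mature level, close to its levels in astrocytes of 32.1 CPM in SD+RS and 46.4 CPM in SD. The remaining 7 genes had between 0 and 14 UMIs each, and Mobp had 0 UMIs in SD+RS and 11 in SD precursors. A Cnp UMI was found in 62.6% of SD+RS and 52.6% of SD precursors. Thinned to 2000 UMIs, with 4 SD+RS and 6 SD cells left out, the shares were 43.4% (35.1 to 51.9) in SD+RS and 29.6% (23.4 to 36.4) in SD, against 4.37% and 4.36% of neurons. Neurons were deeper, with median depths of 21221 UMIs in SD+RS and 22026 UMIs in SD. Among classes nearer in depth, the thinned shares in SD+RS and SD were 1.98% and 4.42% of mural cells and 17.0% and 16.7% of microglia. In astrocytes they were higher than in precursors, at 70.4% and 74.6%. Median depths of precursors were 4186 UMIs in SD+RS and 4469 UMIs in SD.

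**Figure D3:**
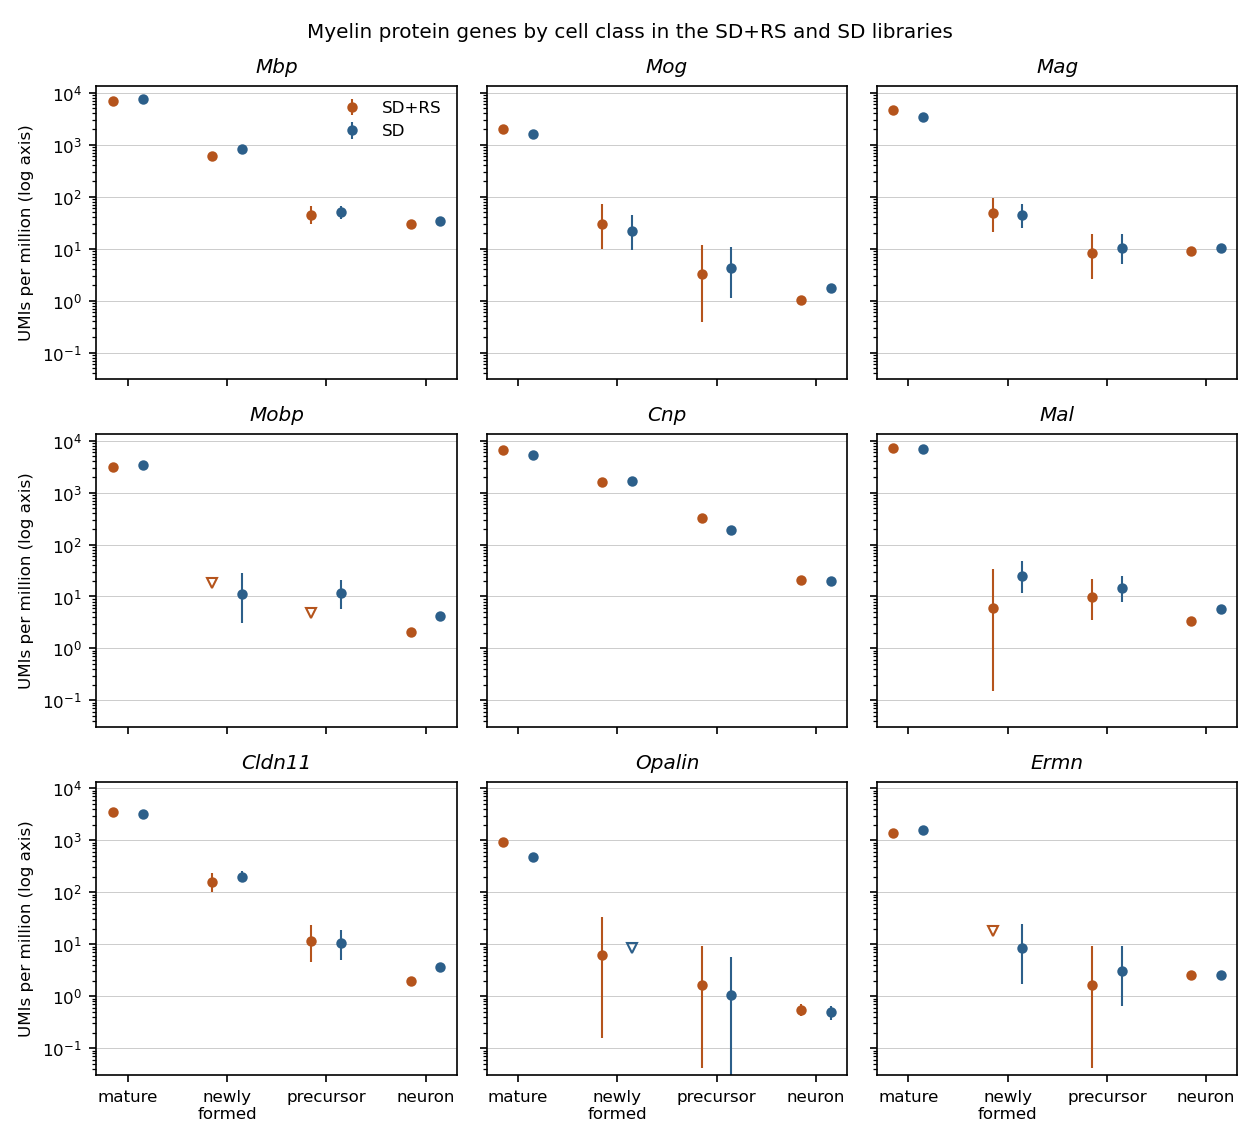
CPM (log axis) of each gene in mature oligodendrocytes, newly formed cells, precursors and neurons, with 95% Poisson intervals, the SD+RS library left of the SD library in each pair. Open triangles stand at the limit that 3 counts set where a class had no UMI. All 9 genes are highest in mature cells, and Cnp falls least toward precursors, at 317 and 188.5 CPM.

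Free RNA from broken cells gives a few UMIs to any droplet, so the levels of the 9 genes in the classes outside the lineage are given here. These levels can hold both free RNA and transcripts of the cells themselves, which were not told apart. In astrocytes, endothelial cells, mural cells and neurons they were under 1% of the mature level, with exceptions for Cnp and Mal. In astrocytes Cnp had 663 CPM (638 to 688) in the SD+RS library and 705 CPM (686 to 725) in the SD library, 9.99% and 13.1% of its mature level. The other 8 genes in astrocytes lay between 0.18% and 0.46% in SD+RS and between 0.35% and 0.64% in SD. Cnp UMIs were found in 81.95% of SD+RS and 85.4% of SD astrocytes, with median depths of 3140.5 and 3443 UMIs. Thinned to 2000 UMIs, with 101 SD+RS and 170 SD cells left out, the shares were 70.4% (67.7 to 73.0) and 74.6% (72.6 to 76.6), against 1.98% and 4.42% of mural cells, whose median depths were 3455 and 3113 UMIs. Of the 3 members with at least 50 UMIs in each library, Mal was past 1.5-fold lower in SD+RS astrocytes, at 12.8 CPM in SD+RS and 24.7 CPM in SD (log2 ratio −0.95, −1.42 to −0.50), where 3.15% of 8605 genes were. The large astrocyte clusters each came mostly from 1 library, with 1102 SD+RS and 106 SD cells in a cluster led by Hes5 and 83 SD+RS and 1776 SD cells in a cluster led by F3 and Etnppl. Cnp was 674 CPM in SD+RS and 665 CPM in SD cells of the Hes5 cluster, and 615 CPM in SD+RS and 706.5 CPM in SD cells of the F3 cluster. For the cells of both libraries the authors' deposited table lists Cnp in 81.4% of the cells of cluster i5, whose leading genes include Sparc and Slc1a3, and in 35.1% of other cells. That last share is near the 34.6% of SD+RS and 35.3% of SD neurons here, so the table may cover mostly neurons. Whether cluster i5 matches the astrocytes described here was not tested.

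In endothelial cells the exception was Mal. It had 651 CPM (608 to 697) in the SD+RS library and 881.5 CPM (842 to 922) in the SD library, 8.90% and 12.9% of its mature level, a log2 ratio of −0.44 (−0.56 to −0.32). The other 8 genes stood between 0.08% and 0.51% in SD+RS and between 0.12% and 0.54% in SD endothelial cells. A Mal UMI was found in 76.4% of SD+RS and 83.3% of SD endothelial cells, with median depths of 3187 and 3541 UMIs. Thinned to 2000 UMIs, with 49 SD+RS and 57 SD cells left out, the shares were 61.3% (54.9 to 67.5) and 73.6% (69.0 to 77.8), against 2.56% and 4.31% of astrocytes. Mal made up 90.4% of the UMIs of the 9 genes in SD+RS and 89.9% in SD endothelial cells, against 20.1% and 20.5% in mature oligodendrocytes. An unnamed cluster led by the vascular genes Rgs5, Vtn and Tm4sf1 had 519.8 CPM of Mal in SD+RS and 814.5 CPM in SD. For both libraries together the authors' deposited table lists Mal in 77.6% of the cells of cluster i17, led by the endothelial genes Cldn5 and Ly6c1, and in 10.8% of other cells. Here a Mal UMI was found in 6.74% of SD+RS and 12.2% of SD neurons, and in 21.1% and 28.95% of all kept cells. The deposited table may thus cover mostly neurons, and whether cluster i17 matches the endothelial cells described here was not tested.

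**Figure D4:**
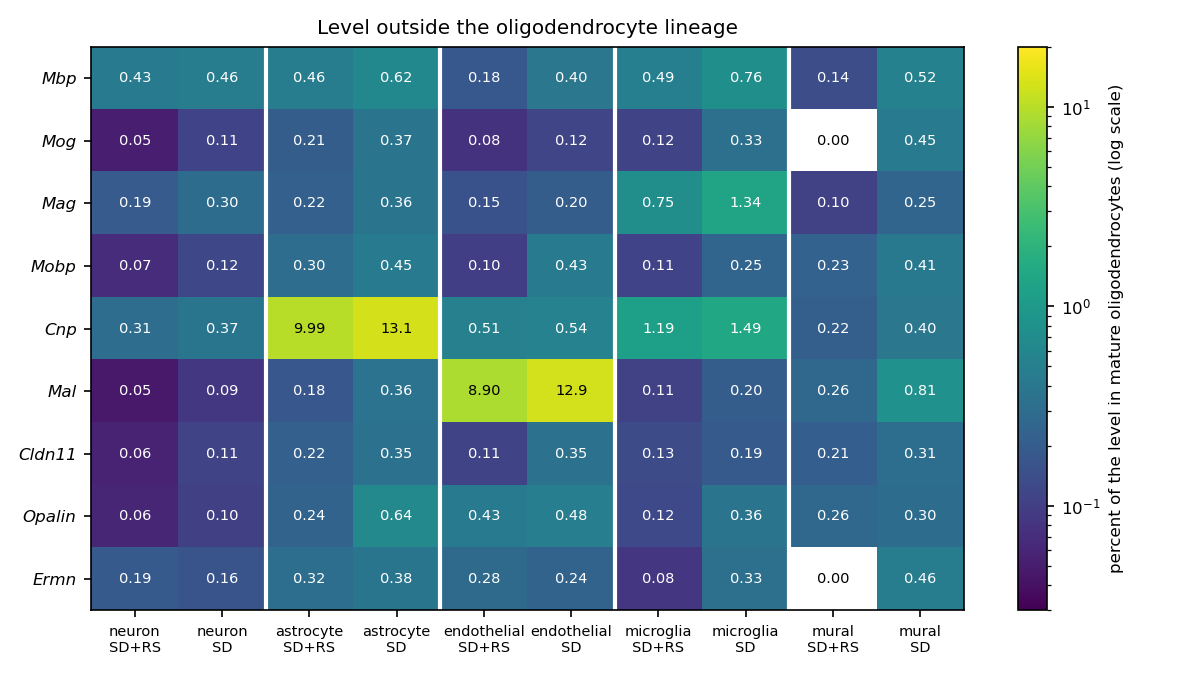
Level of each gene outside the oligodendrocyte lineage as a percent of its own level in mature oligodendrocytes of the same library (colour on a log scale, values printed, white for no UMI), for 5 cell classes with the SD+RS library left of the SD library. Cnp in astrocytes (9.99 and 13.1) and Mal in endothelial cells (8.90 and 12.9) stand far above the other values.

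Microglia, the resident phagocytes, stood above neurons, endothelial cells and mural cells for Cnp, and above these and astrocytes for Mag, in both libraries. Cnp was at 1.19% of its mature level in SD+RS and 1.49% in SD microglia (79.0 and 80.2 CPM), Mag at 0.75% and 1.34% (34.3 and 46.2 CPM, against at most 10.1 and 12.5 CPM in the other 4 classes) and Mbp at 0.49% and 0.76% (34.3 and 56.7 CPM). The other 6 members were at no more than 0.13% in SD+RS and 0.36% in SD microglia, on 1 to 16 UMIs each. In 122 SD+RS and 211 SD mural cells no member passed 0.26% in SD+RS or 0.81% in SD. Among 17 SD perivascular macrophages, 1 cell held 448 of the 452 UMIs of the 9 genes, enough to meet the minimum for mature cells, and the 10 SD+RS macrophages held 6.

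From the neurons 37 SD+RS and 114 SD cells were set aside, those of 1 unnamed subcluster and of 2 subclusters named astrocyte and oligodendrocyte by their markers, which left 4261 SD+RS and 3733 SD cells. In these neurons the members stood at a median of 0.07% of their mature level in SD+RS and 0.12% in SD, and their proportions were not those of mature oligodendrocytes. Mbp had 29.9 CPM in SD+RS and 34.4 CPM in SD neurons, 0.43% and 0.46% of its mature level, while Mal had 3.41 and 5.87 CPM, 0.05% and 0.09%. Mbp made up 42.2% (41.0 to 43.4) of the UMIs of the 9 genes in SD+RS and 41.2% (40.1 to 42.3) in SD neurons, against 19.1% and 22.3% in mature oligodendrocytes. Cnp (0.31% and 0.37%) and Mag (0.19% and 0.30%) were also above Mog, Mobp, Mal, Cldn11 and Opalin, which lay between 0.05% and 0.12%. Of 8 members with at least 50 UMIs in each library, 4 were past 1.5-fold lower in SD+RS neurons, where 1.35% of 13766 genes were. These were Mobp (log2 ratio −1.01, −1.26 to −0.76), Cldn11 (−0.93), Mog (−0.80) and Mal (−0.78). Mbp (−0.20), Mag (−0.23), Cnp (0.03) and Ermn (0.03) were nearer to even. With the subclusters put back, the median was 0.10% in SD+RS and 0.18% in SD, Mal had 549 UMIs in SD+RS and 790 in SD instead of 332 and 516, and Opalin had 93 in SD+RS and 59 in SD instead of 54 and 43. The same 4 members were past 1.5-fold lower, and Opalin, then with at least 50 UMIs in each library, had a log2 ratio of 0.53 (0.04 to 1.03). The part of the lower total of the 9 genes over all SD+RS cells, 2825 CPM in SD+RS and 3829 CPM in SD, in the neuronal values was not tested.

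Of 41 clusters of neurons, 33 had at least 50 cells in each library, and among these Ermn stood apart in 1. In a cluster led by Pou3f1 and Gm45768, with Shh and Ermn itself among its 10 leading genes, Ermn had 67.9 CPM (54.3 to 83.8) in 57 SD+RS cells and 63.7 CPM (49.4 to 80.9) in 52 SD cells. The medians over the 33 clusters were 0.67 CPM in SD+RS and 1.62 CPM in SD, and the next highest cluster had 16.7 CPM in SD+RS and 6.51 CPM in SD. The 8 smaller clusters reached 8.35 CPM in SD+RS and 5.49 CPM in SD, on at most 5 and 3 UMIs each. Ermn UMIs were found in 66.7% of SD+RS and 59.6% of SD cells of this cluster, against 2.85% and 3.89% of other neurons, with median depths of 20869 and 20116 UMIs. The other members were not high there: Mbp had 15 CPM in SD+RS and 17.1 CPM in SD, below its medians over clusters of 29.9 and 34.4 CPM, and Mog had 1 and 2 UMIs. Ermn had no part in the clustering, which left out all 9 genes. For both libraries together the authors' deposited table lists Ermn in 61.9% of the cells of cluster i10, whose list also holds Pou3f1, Gm45768 and Shh, and in 5% of other cells.

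**Figure D5:**
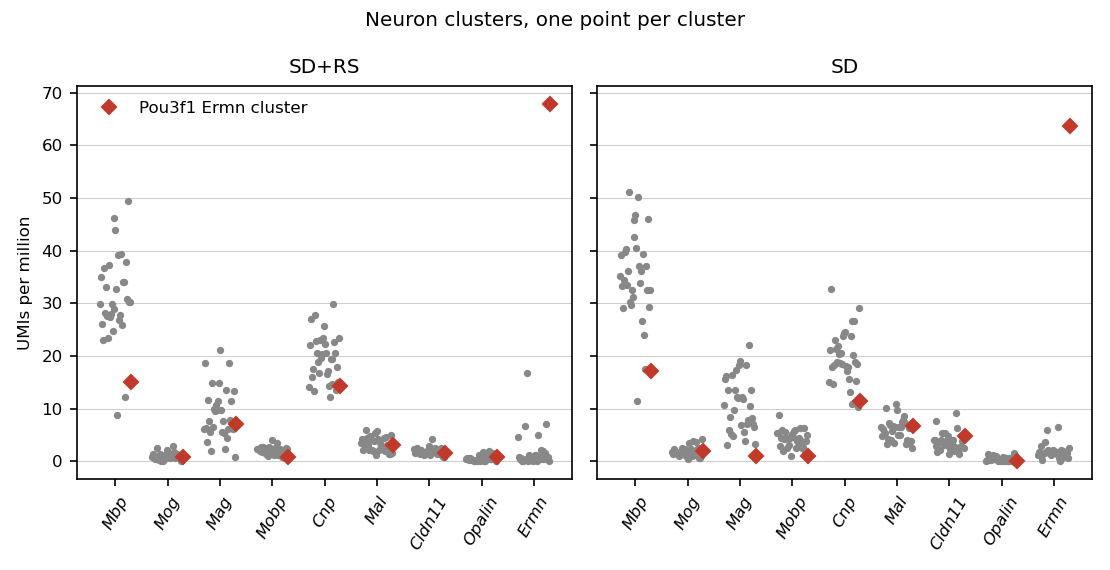
CPM of each gene in the 33 neuron clusters with at least 50 cells in each library, 1 point per cluster, in the SD+RS library (left) and the SD library (right). Red diamonds mark the cluster led by Pou3f1 and Gm45768, where Ermn stood at 67.9 and 63.7 CPM and the other 8 genes lay among or below the other clusters.

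Other genes of myelin and its cells moved little between the libraries in mature cells. Of 52 genes in 5 lists, 51 had at least 50 UMIs in each library, 2 (3.92%) were past 1.5-fold higher and 0 past 1.5-fold lower, near the 3.25% and 3.33% of all genes. Their median log2 ratio was 0.13, beside −0.01 over all 8618 genes. Counting intervals, which narrow with the number of UMIs, lay above 0 for 35 (68.6%) and below 0 for 9 (17.6%), beside 17.9% and 19.2% of all genes. The first of the pair past 1.5-fold was Tmem125, a membrane protein gene, with 229 CPM in SD+RS and 139 CPM in SD (log2 ratio 0.72, 0.63 to 0.81). The second was Elovl7, a fatty acid elongase, with 275 CPM in SD+RS and 171 CPM in SD (log2 ratio 0.68, 0.60 to 0.77). The 11 membrane protein genes had a median of 0.13, with Pllp at 0.47 and Plekhb1 lowest at −0.07, followed by Gpm6b at −0.05. The 10 lipid enzymes had a median of 0.21, with Aspa, which breaks down N-acetylaspartate, at 0.57, and Ugt8a and Fa2h, enzymes of galactolipid synthesis, at 0.01 and 0.07. The 10 junction and axon contact genes had a median of 0.15, with Tspan15 at 0.33, Gjc3 at 0.05 and Hapln2 at −0.03. The 10 transcription factors had a median of −0.01, with Nkx6-2 at 0.54, Nkx2-2 at 0.38, Zfp536 at −0.28 and Zfp488 at −0.43. The 10 metabolism and transport genes had a median of 0.09, with Ppp1r14a at 0.50, Ptgds at 0.26, Apod at −0.15 and Cryab, a small heat shock protein, at −0.49.

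Over 8 cell classes in 2 libraries, 16 points that share library and depth, the genes whose log2(CPM + 1) was most like the mean of the 9 were Ptgds (Pearson r 0.99), Gm28322 (0.96), Tmem125 (0.96), Secisbp2l (0.96), Il12rb1 (0.96) and Ly6g6f (0.96), of 8609 genes compared. Ptgds, prostaglandin D2 synthase, had 31320 CPM in SD+RS and 26188 CPM in SD mature cells. Of the members themselves, Mog was most like the mean of the other 8 (0.98), and Cnp (0.74) and Mal (0.74) were least alike. The points are few and dominated by the step from mature cells to the rest.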

How the data were processed

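Values are UMI counts per gene and cell from 2 single-cell libraries of the preoptic area, 1 per group. Per the file headers the deposited count matrices come from Cell Ranger 3.0.2, made on build mm10, per the submitters' processing notes, which also name Seurat 4.0.4. The deposited marker tables give a p-value over cells, an average difference treated here as a natural log since its base is not stated, and the share of cells as a fraction, per the file headers. Only shares are quoted, as percents.

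Barcodes needed 500 or more genes and less than 20% mitochondrial UMIs (7709 of 8106 SD+RS and 9875 of 10262 SD barcodes). Doublets were called from simulated pairs in each library with Scrublet in scanpy 1.11.5 and removed, 294 (3.81%) and 586 (5.93%), when 59.9% and 63.2% of simulated doublets were called. Depth per library was 123500649 UMIs in SD+RS and 132191585 in SD. Both libraries were clustered together without correction (2000 variable genes without the 9 members, 40 principal components, 20 neighbours, Leiden resolution 1.0, and 1.5 for neurons alone). Clusters were named from marker lists, with scoring and thresholds set after the data were seen. Classes with at least 100 cells in each library are described, and smaller ones only where named as such.

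Sums of UMIs per class were scaled to 1000000 (CPM). Intervals are exact Poisson (levels), Clopper-Pearson (shares) and conditional binomial (ratios). The ratio step was tested on simulated data. With 1 library per group there is no p-value, and a gene is counted as past the fold at 1.5-fold with at least 50 UMIs in each library. The 9 members, the gene lists and the alternatives were chosen with earlier results of these data known. All 9 members are named, with the 2 highest and 2 lowest genes of each list and the 6 genes most like the members' mean, apart from 1 list gene not reported here. Proteins are not analysed here. Alternatives used TMM factors from edgeR 4.0.16 and size factors from DESeq2 1.42.0.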

Additional observations from a re-analysis of the deposited data

How the results depend on the processing

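No paired analysis was possible because each group has 1 library. Over 18 alternatives in mature cells no gene changed direction. Opalin stayed past 1.5-fold in all 18, with log2 ratios of 0.78 to 1.27, and no other member passed it in any. The summed log2 ratio of the 9 genes (0.12) was 0.14 with the UMI minimum applied to all clusters, 0.15 with TMM factors and 0.15 with DESeq2 size factors, 0.11 as a mean over cells, 0.11 with the 9 genes kept in the clustering, 0.058 in Xist-only and 0.24 in Y-linked cells, and, chosen after seeing the data, 0.10 in the Il33 cluster and 0.076 in the Klk6 cluster. The median (0.10) was 0.13 with the newly formed rule first, 0.13 with TMM and 0.13 with DESeq2 factors, 0.13 in cells with fewer neuronal UMIs, 0.027 in Xist-only and 0.39 in Y-linked cells. The sum in newly formed cells (−0.16) turned positive, at 0.21 with their rule applied first (138 SD+RS and 213 SD cells, of which 103 and 140 also met the rule for mature cells, 86 and 117 of them in the Klk6 cluster), 0.51 with doublets kept, 0.90 in Xist-only cells, 0.20 in Y-linked cells and 0.39 for the whole cluster, an alternative chosen after seeing the data. The sum in neurons (−0.24) was −0.38 with doublets kept, −0.35 with the 9 genes kept in the clustering and, chosen after seeing the data, −0.29 with the subclusters that were set aside put back. In precursors the sum (0.44) stayed within its counting interval under every alternative run. Cnp made up 79.6% of the UMIs in that sum in SD+RS and 64.2% in SD precursors. No other member had at least 50 UMIs in each library there, so the sum says little of the other members. Genes past 1.5-fold in mature cells (6.58%) were 9.90% with at least 20 UMIs and 26.8% with at least 1 UMI in each library, and 1.42% were past 2-fold. The cause of these changes was not tested, apart from the fewer genes or cells that a setting itself leaves. The 35 SD+RS and 73 SD newly formed cells limit what can be said of them, and no spread between animals is known.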
